A study of Hordeum vulgare with 10 samples.

Results

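Barley seeds that had been kept dry for 46 years and still germinated well were set against their own freshly regenerated progeny, and the small RNAs compared were all miRNAs of the deposited count table, 61 known and 81 predicted, in 6 of its 9 libraries. The Hv seeds (high viability, 3 libraries) were of cv. Damazy, dried to 2.96% water at the start. They were stored dry in a sealed flask from 1972 to 2018, with 86.7% germination. The Rc seeds (regenerated control, 3 libraries) were grown in the field in 2017 and 2018 from a sample of those high-viability seeds. They were then dried to about 7% water. Both groups were sampled as the dry embryo with its scutellum. Rc seeds thus share the descent of Hv seeds but differ from them in harvest, growth season, drying and flask as well as in storage, and these cannot be told apart. The replicates are seed samples of the same flask or the same harvest, so p-values measure only the spread between such samples. The known miRNAs come from 13 families, with their isomiRs listed apart. These are mostly forms of 1 miRNA that differ by end bases, but miR168 and miR171 include forms from both arms of the hairpin. The predictions, named hvu-new, were made from hairpins in the barley genome. At least 1 count was listed in Hv or Rc for 134 of all these miRNAs, known and predicted.

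A miRNA is a short RNA cut from a hairpin precursor and loaded into an Argonaute protein, which it guides to complementary transcripts that are then cut or kept from translation. Bases 2 to 8 from the 5′ end, the seed, contribute strongly to this pairing. In plants the abundant families mostly target regulators of development: miR156 targets SPL factors, miR159 targets GAMYB-type MYB factors, miR166 targets HD-ZIP III factors and miR168 targets AGO1, itself an Argonaute. GAMYB factors act in the gibberellin response of the cereal aleurone. Dry embryos keep a store of RNA from seed maturation, and no new transcription is generally expected before water uptake.

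The sequences on which the comparison turns are abundant forms of 4 known families for which a sequence was at hand, the predicted miRNAs with the smallest p, and the abundant predictions. They are given 5′ to 3′ with the seed in capitals, written with U for known miRNAs and with T for predictions, as the study's sequence tables have them.
miR156.5: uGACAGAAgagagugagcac
miR159.5: uUUGGAUUgaagggagcucu
miR166.7: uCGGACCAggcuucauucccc
miR168.10: uCGCUUGGugcagaucgggac
hvu-new2: aAGTCCTCgtgttgcattcct
hvu-new5: aGTCCTCGtgttgcattcct
hvu-new60: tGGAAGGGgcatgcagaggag
hvu-new61: tGGACGTGgaggtgcagctgc
hvu-new69: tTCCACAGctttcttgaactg
hvu-new40: tCCACAGGctttcttgaactg
hvu-new73: tTGAGTGCagcgttgatgaac
hvu-new57: tGCAGCGCcggtgaaccgctcc
hvu-new74: tTGATTTCgcggctcatcttgc
hvu-new52: tGAAGCTGccagcatgatctga
hvu-new62: tGGACTGAagggagctccctc
The predictions hvu-new45, hvu-new54, hvu-new43 and hvu-new81 have the sequences of miR166.7, miR156.5, miR168.10 and miR5051.4, and so repeat them in the table. The counts of hvu-new45 and hvu-new54 were 4 times those of the known form in 6 of 6 libraries, and each has 4 listed loci. The same held for hvu-new80 and miR159.6, for which no sequence of miR159.6 was used here. These predictions are not described singly in what follows, but the counts over all miRNAs below include them.

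The libraries were shallow. Total counts were 4179, 9470 and 14618 in the Hv libraries, against 8008, 7159 and 19542 in the Rc libraries, and 3 counts correspond to between 171 and 656 CPM (counts scaled to a common library total, after TMM), depending on the library. Hv replicates 1 and 2 and Rc replicates 2 and 3 were sequenced in run 1 and Hv replicate 3 in run 2, while the run behind the column of Rc replicate 1 is not known. Predicted miRNAs held 75.7% ± 2.12 of the counts in Hv and 76.8% ± 0.928 in Rc (SD, n = 3 each; exact permutation test, two-sided, p = 0.7), repeated predictions included. Without the repeats the share was 45.6% ± 7.07 in Hv and 47.6% ± 2.13 in Rc (exact permutation test, p = 0.9).

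No miRNA differed between Hv and Rc seeds past an adjusted p of 0.05 among the 99 with at least 10 counts over the 9 libraries (edgeR quasi-likelihood test, Benjamini-Hochberg), so 0% of those tested were called. At an unadjusted p under 0.05, 2 were higher in Hv (2.02% of those tested) and 4 lower (4.04%), all of them predictions. DESeq2 called 1 miRNA, hvu-new2 (1.01%), and had 4 at an unadjusted p under 0.05. Fold changes lay on both sides of 0: 51 were above and 48 below, with a median log2 fold change (Hv minus Rc) of 0.02 over the 28 known miRNAs and 0.04 over the 56 predicted miRNAs that had counts in both groups. How much this comparison could show differed with the number of counts and with the spread between libraries. Among the 19 miRNAs with a mean of at least 50 counts per library, 13 had a 95% interval of the log2 fold change that lay between -1 and 1, so that a change over 2-fold lay outside it. The repeats hvu-new45, hvu-new54 and hvu-new80 are among these 13. Among the 22 with a mean of 10 to 50 counts 3 did, and among the 58 below that 0 did, 14 of which had a group at 0 and so no interval. With means over 50 counts, hvu-new5 and hvu-new14 still had SEs of 2.13 and 1.94, each at 0 in 1 library of each group. In simulated counts, the test found 28.5% of 2-fold and 85.1% of 4-fold changes in miRNAs with a mean of at least 50 counts, but 4.7% and 20.8% over all 99, and 9.62% and 4.15% of its calls were false. The simulation drew all 99 as independent, repeats included. It modelled no zeros of predictions beyond those that the fitted spread gives.

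**Figure D1:**
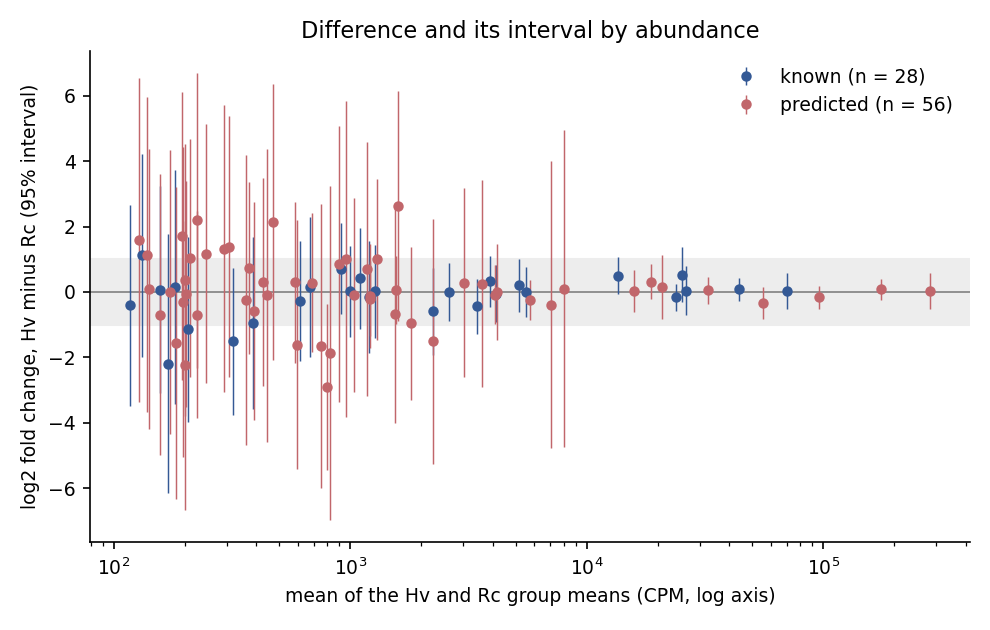
Log2 fold change (Hv minus Rc) against the mean level in CPM on a log axis, for the 28 known and 56 predicted miRNAs with counts in both groups, with bars for the 95% interval and a grey band from -1 to 1. Intervals narrow to the right: 13 of 19 miRNAs with a mean of at least 50 counts stay within the band and 0 of the 44 drawn with a mean under 10 counts do.

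The levels of the large conserved families overlapped between Hv and Rc seeds. The miR159 family had 106300, 102900 and 157900 CPM in the Hv libraries, against 106400, 89670 and 125800 CPM in the Rc libraries. Hv replicate 3 was the highest of the 6 and Rc replicate 2 the lowest, and the groups overlapped. The miR166 family had 51860, 54750 and 66680 CPM in Hv, against 48480, 53070 and 59490 CPM in Rc. The miR156 family had 51640, 44440 and 62830 CPM in Hv, against 42840, 73870 and 51610 CPM in Rc, with Rc replicate 2 the highest. The miR168 family was lower, with 5032, 7940 and 6990 CPM in Hv, against 10360, 6057 and 8107 CPM in Rc. On the scale of log2(CPM + 1), the mean difference was 0.18 for miR159, 0.10 for miR166, -0.06 for miR156 and -0.29 for miR168. Exact two-sided permutation tests gave p = 0.7, 0.6, 1.0 and 0.4, where 3 against 3 libraries cannot go below 0.1. Scaled to the reads mapped to the genome, the differences of all 9 families tested lay below 0, with -0.14 for miR159, -0.21 for miR166, -0.38 for miR156 and -0.60 for miR168 (exact permutation tests, adjusted p = 0.9 each).

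The smaller families rested on few counts. The miR5048 family averaged 4745 ± 1466 CPM in Hv and 4499 ± 740 CPM in Rc (SD, n = 3 each), and miR5051 averaged 1427 ± 641 CPM in Hv and 1595 ± 707 CPM in Rc. No role is given here for either. miR171, which targets GRAS factors, had 0, 5 and 5 counts in Hv, against 2, 4 and 3 in Rc, and miR444, which targets MADS-box genes in monocots, had 0, 2 and 3 in Hv, against 1, 2 and 3 in Rc. miR6201 had 0, 0 and 9 counts in Hv, against 2, 2 and 6 in Rc. The zeros of miR171 and miR444 are both in Hv replicate 1, the library with the fewest counts. miR1120, miR5049, miR6200 and miR397 had between 1 and 6 counts over the 6 libraries. In all, 9 families had at least 10 counts, their groups overlapped in each, and the adjusted p was 1.0 for every one (exact permutation tests).

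**Figure D2:**
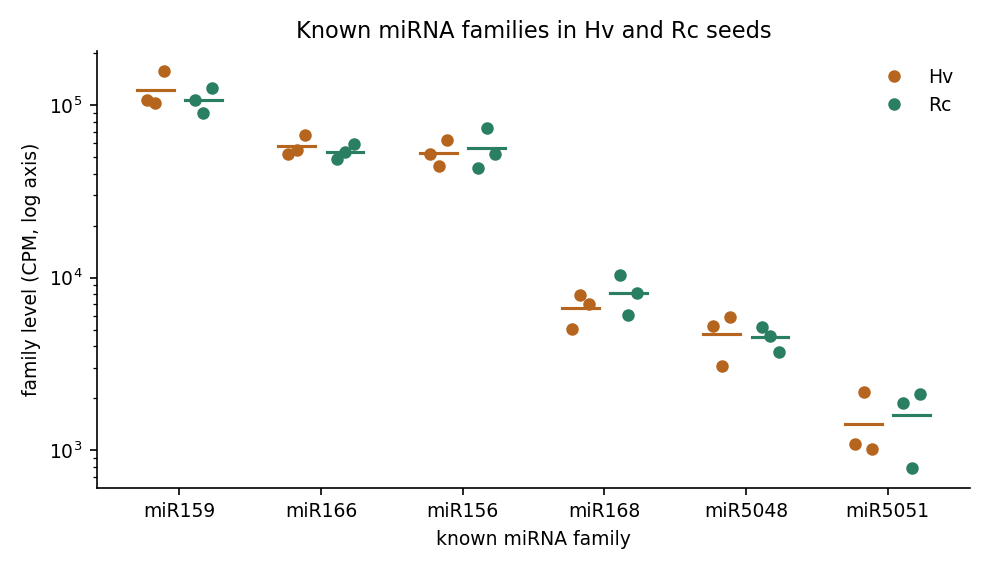
Level of 6 known miRNA families in CPM (log axis), with a point for each library and a line for the group mean, Hv left of Rc. The points of both groups overlap in each family, from miR159 with means of 122400 CPM in Hv and 107300 CPM in Rc to miR5051 with 1427 CPM in Hv and 1595 CPM in Rc.

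Among single known isomiRs, miR166.7 had the narrowest interval. It had 191, 423 and 640 counts in Hv, against 330, 319 and 832 in Rc, a log2 fold change of 0.08 (SE 0.16, 95% interval -0.28 to 0.44). miR159.6 had 259, 675 and 1112 counts in Hv, against 564, 465 and 1433 in Rc, a log2 fold change of 0.03 (SE 0.25, interval -0.53 to 0.59). For miR156.5 the log2 fold change was -0.17 (SE 0.19, interval -0.59 to 0.26). All 3 intervals leave out a 2-fold difference in either direction, whereas that of miR159.3, with 1590 counts in all, did not (-0.30 to 1.36). miR159.5, the form of miR159 that ends in cucu, had the smallest p of the known miRNAs: 72, 129 and 237 counts in Hv, against 89, 67 and 252 in Rc. After scaling this was 15750, 13300 and 18610 CPM in Hv, against 10470, 8822 and 14390 CPM in Rc, groups that overlap between the lowest Hv and the highest Rc library. Its log2 fold change was 0.50 (SE 0.25, interval -0.06 to 1.06; edgeR adjusted p = 0.67). Scaled to mapped reads it was 0.16, and it was 0.32 within run 1 and 0.29 without Hv replicate 3. miR168.9 and miR168.10, nested forms with the same seed, had log2 fold changes of -0.59 (SE 0.58) and -0.05 (SE 0.38). miR168.3, which comes from the 3′ arm and carries another seed, had 1, 2 and 1 counts in Hv, against 4, 2 and 12 in Rc. In CPM its groups did not overlap (log2 fold change -1.51, SE 0.99, edgeR adjusted p = 0.88).

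The make-up of each family by isomiR, which does not depend on how libraries are scaled, was compared next. The share of miR159.6 in its family was 53.3%, 67.6% and 55.3% in Hv, against 62.4%, 68.3% and 65.1% in Rc. Hv replicates 1 and 3 were below all 3 Rc libraries, and Hv replicate 2 was not. Group means were 58.7% ± 7.77 in Hv and 65.2% ± 2.95 in Rc (SD, n = 3 each), which gave p = 0.3 in a two-sided exact permutation test and 0.67 after adjustment over 5 families. miR166.7 made up 78.5% ± 2.78 of its family in Hv and 79.7% ± 0.487 in Rc. For miR168.10 the share was 62.5% ± 10.3 in Hv and 50.8% ± 6.30 in Rc, with 73.9% in Hv replicate 1, where the family had 23 counts. miR156.3 made up 49.8% ± 3.29 of its family in Hv and 44.4% ± 8.96 in Rc.
Of 22 isomiR shares computed over 5 families, 3 had groups that did not overlap. These were miR159.5, with 14.8%, 12.9% and 11.8% of its family in Hv, against 9.85%, 9.84% and 11.4% in Rc, miR156.4, with 5.09%, 6.03% and 5.50% in Hv, against 7.14%, 7.31% and 6.75% in Rc, and miR5048.8, with 23.5% ± 4.95 in Hv and 15.2% ± 0.829 in Rc (SD). Each had the smallest p that 3 against 3 libraries allow, 0.1 (exact permutation test), and an adjusted p of 0.68 over the 22 shares. They were picked out after their values were seen. miR5048.8 rested on 7, 6 and 16 counts in Hv, against 7, 5 and 10 in Rc.

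**Figure D3:**
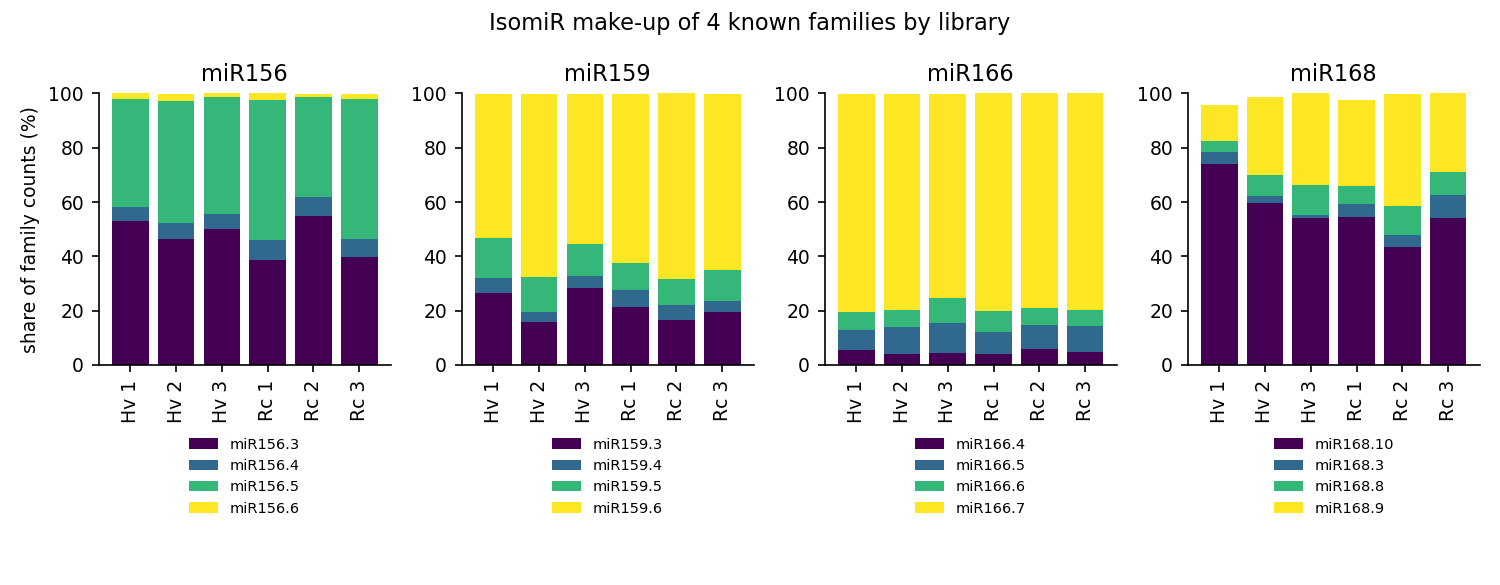
Share of each isomiR with at least 10 counts in the counts of its family, in percent, for miR156, miR159, miR166 and miR168, as stacked bars with 1 bar per library (3 Hv, then 3 Rc). The leading form holds most of miR166 in every library (78.5% on average in Hv and 79.7% in Rc), while miR168.10 holds from 53.9% to 73.9% of its family in Hv and from 43.5% to 54.5% in Rc.

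The predicted miRNAs with high counts gave no call either. hvu-new74, a 22-nt form from chromosome 2H (chr2H:131820742-131820763, plus strand, build IBSC_v2), had 47480, 54550 and 46420 CPM in Hv, against 63430, 57810 and 65320 CPM in Rc. Every Hv library lay below every Rc library, with a log2 fold change of -0.33 (SE 0.21, interval -0.81 to 0.15; edgeR adjusted p = 0.88). hvu-new62, from chromosome 4H, showed the opposite order, with 18820, 19380 and 24030 CPM in Hv, against 13420, 18700 and 17810 CPM in Rc, and a log2 fold change of 0.32 (SE 0.24, interval -0.22 to 0.85; edgeR adjusted p = 0.90). This was 0.0206 with library sizes from mapped reads, 0.0655 within run 1, 0.11 without Hv replicate 3 and 0.18 without Rc replicate 1. hvu-new52, assigned by the study to miR167, a family that targets auxin response factors, had 135, 390 and 381 counts in Hv, against 246, 255 and 594 in Rc (log2 fold change 0.05, SE 0.18). It has 3 listed loci, and every count is a multiple of 3. Whether each read was counted once per locus was not tested. If so, its SE rests on fewer reads than the counts show. hvu-new40 had 112, 226 and 227 counts in Hv, against 164, 124 and 406 in Rc (log2 fold change 0.16, SE 0.43). It has 2 listed loci, and these counts are even except 227, so the same untested limit may hold for its SE. hvu-new46, which shares the seed of miR166.7, averaged 15940 ± 558 CPM in Hv and 15600 ± 4621 CPM in Rc (SD, n = 3 each), and hvu-new44, with the same seed, had 25, 43 and 74 counts in Hv, against 48, 44 and 126 in Rc.
Over all 99 miRNAs tested, Hv and Rc did not overlap in CPM for 8 (8.08%), 2 with Hv above (2.02%) and 6 with Hv below (6.06%). hvu-new62 and hvu-new19 were above, and hvu-new60, hvu-new61, hvu-new69, hvu-new74, miR168.3 and miR5051.3 below. hvu-new19 had 18, 30 and 17 counts in Hv, against 0, 0 and 21 in Rc (log2 fold change 2.62, SE 1.55, edgeR adjusted p = 0.88). Its only counts in Rc were in replicate 3, without which Rc was at 0 and the fitted value was 7.52.

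The 6 miRNAs with an unadjusted p under 0.05 were predictions with few counts, mostly at 0 in 1 group. A 0 in these columns has a meaning of its own. Predictions were made by finding a hairpin, so a listed 0 may mean that the miRNA was not predicted in that library. Where the other 2 libraries of a group implied at least 10 counts, predicted miRNAs were at 0 in 20 of 149 cases, 9 in Hv and 11 in Rc, and known miRNAs in 0 of 97. Whether these zeros are missed predictions was not tested. Folds given below with a floor of 3 counts for a group at 0 take its zeros as measured. They leave out the spread between libraries and are not lower bounds.
The smallest p belonged to hvu-new2. hvu-new2 and hvu-new5 end at the same base of chromosome 5H (chr5H:137203136-137203156 and chr5H:137203137-137203156, plus strand, IBSC_v2) and differ by 1 base at the 5′ end. In their common hairpin, hvu-new2 is in capitals.
hairpin of hvu-new2: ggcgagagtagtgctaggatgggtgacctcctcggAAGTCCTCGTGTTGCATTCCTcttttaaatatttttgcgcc
hvu-new2 had 0, 81 and 78 counts in Hv, against 0, 0 and 0 in Rc. hvu-new5 had 97, 0 and 48 counts in Hv, against 106, 0 and 185 in Rc. Hv replicate 1 thus had only the shorter form, Hv replicate 2 only the longer and Hv replicate 3 both. Taken alone, hvu-new2 was 66.0-fold higher in Hv with a floor of 3 counts for the Rc group (edgeR adjusted p = 0.24, listed in 2 of 3 Hv libraries). DESeq2 gave it an adjusted p of 0.00063. Without Hv replicate 1, the library in which it is at 0, edgeR gave an adjusted p of 0.00055. The sum of both forms was 97, 81 and 126 counts in Hv, against 106, 0 and 185 in Rc. For that sum the log2 fold change was 0.70 (SE 1.08, interval -1.75 to 3.15; edgeR adjusted p = 1.0), so that the locus as a whole gave no call. The interval is wide, and Rc replicate 2 had none of either form.

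hvu-new60 was listed in all Rc libraries and in no Hv library: 0, 0 and 0 counts in Hv, against 11, 24 and 18 in Rc. It lies on chromosome 4H (chr4H:622673300-622673320, plus strand, IBSC_v2) and shares its locus with no other Id. Its hairpin is shown because it is the only prediction with over 10 counts in every Rc library and 0 in every Hv library.
hairpin of hvu-new60: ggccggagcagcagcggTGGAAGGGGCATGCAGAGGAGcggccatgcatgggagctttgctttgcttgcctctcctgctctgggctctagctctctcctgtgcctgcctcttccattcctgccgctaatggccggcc
It was 14.2-fold lower in Hv with a floor of 3 counts for the Hv group (edgeR adjusted p = 0.24). hvu-new61 had 0, 0 and 0 counts in Hv, against 3, 6 and 7 in Rc, 4.29-fold lower with the same floor (edgeR adjusted p = 0.60). It shares 20 bases of its locus with hvu-new75, and their sum was 2, 3 and 0 counts in Hv, against 3, 6 and 15 in Rc, so the pair was not absent from Hv. Another such prediction, hvu-new65, had 2 counts in each Rc library and 0 in each Hv library, and was under the count filter. No miRNA was listed in all 3 Hv libraries and at 0 in all 3 Rc libraries.

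hvu-new69, assigned by the study to miR396, a family that targets growth-regulating factors (GRF), had 0, 0 and 6 counts in Hv, against 14, 10 and 24 in Rc. It has 2 listed loci, and every count is even. Whether each read was counted once per locus was not tested. If so, its SE and p-values rest on fewer reads than the counts show. All 3 Hv libraries lay below all 3 Rc libraries, and the only counts in Hv were in its deepest library. The log2 fold change was -2.89 (SE 1.12, interval -5.42 to -0.36; edgeR adjusted p = 0.66). Without Hv replicate 3, with both remaining Hv libraries at 0, it passed (edgeR adjusted p = 0.041), while within run 1, where Hv is also at 0, it did not (edgeR adjusted p = 0.31). hvu-new40, which shares a run of 14 bases with it, had the log2 fold change of 0.16 given above.
hvu-new73, assigned to miR397, a family that targets laccases, had 0, 0 and 0 counts in Hv, against 0, 18 and 31 in Rc. With the floor for Hv, hvu-new73 was 13.1-fold lower in Hv (edgeR adjusted p = 0.66). hvu-new57 had 0, 7 and 2 counts in Hv, against 0, 0 and 0 in Rc, 3.73-fold higher in Hv with the floor for Rc (edgeR adjusted p = 0.66). Both lie on the same stretch of chromosome 6H: hvu-new73 on the plus strand (chr6H:95336411-95336431, IBSC_v2), and hvu-new57 on the minus strand (chr6H:95336467-95336488), inside the bounds of the hairpin of hvu-new73. It was the only pair of predictions found to share a hairpin on opposite strands. With 0 to 31 counts per library, neither passed adjustment, and Hv replicate 1 and Rc replicate 1 had none of either.
The next smallest p belonged to predictions at 0 in 1 group. hvu-new34 had 0, 4 and 36 counts and hvu-new22 had 2, 0 and 3 counts in Rc, both with 0 in every Hv library. hvu-new24 had 10, 0 and 3 counts and hvu-new17 had 5, 10 and 0 counts in Hv, both with 0 in every Rc library (edgeR adjusted p = 0.67 for each of the 4). hvu-new22 shares its locus with hvu-new21, and their sum was 0, 2 and 2 counts in Hv, against 2, 0 and 3 in Rc (log2 fold change -0.08, SE 1.34). hvu-new24 shares its locus with hvu-new41, and their sum was 10, 0 and 3 counts in Hv, against 0, 3 and 0 in Rc (log2 fold change 2.53, SE 1.81).
Other members assigned to known families gave less. hvu-new71, assigned to miR171, had 0, 3 and 2 counts in Hv, against 2, 4 and 2 in Rc. The 5 nested miR167 forms hvu-new49 to hvu-new53 summed to 147, 445 and 424 counts in Hv, against 283, 295 and 746 in Rc (log2 fold change -0.07, SE 0.19, interval -0.50 to 0.35), while hvu-new49 alone was at 0, 33 and 0 in Hv, against 24, 24 and 70 in Rc. The counts of hvu-new52 in this sum are all multiples of 3, as given above.

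**Figure D4:**
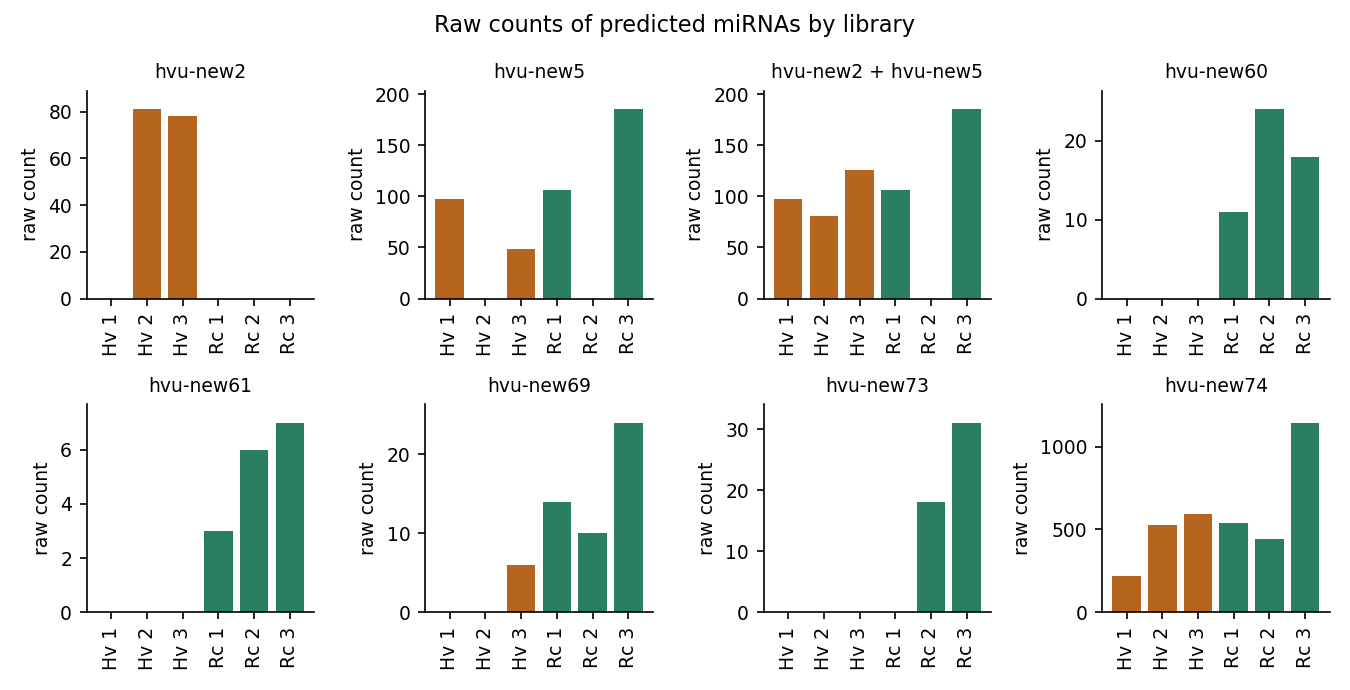
Raw counts per library (3 Hv, then 3 Rc; each panel has its own axis from 0) of 7 predicted miRNAs and of the sum of hvu-new2 and hvu-new5. hvu-new2 has 81 and 78 counts in 2 Hv libraries and none in Rc, whereas the sum has counts in 5 of 6 libraries, and hvu-new60 and hvu-new61 have counts in the Rc libraries alone.

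In all, 94 miRNAs had at least 1 count in both groups, 18 in Hv alone and 22 in Rc alone. Of the 11 known miRNAs found in Hv alone, none had more than 1 count in total, and of the 6 found in Rc alone none had more than 2. Predictions made up the rest, 7 in Hv alone and 16 in Rc alone, where hvu-new2 and hvu-new60 had the most counts. A stricter rule asked for counts in at least 2 libraries of a group. By it, 61 met the rule in both groups, 20 in Hv alone and 22 in Rc alone. Those that met it in 1 group alone could still have counts in the other, as hvu-new19 had in Rc replicate 3. Leaving out the deepest library of either group moved the figures at 1 count by more than 1.5 times: without Hv replicate 3, 34 were in Rc alone, and without Rc replicate 3, 33 were in Hv alone.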

How the data were processed

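Small RNA was sequenced by the authors from 3 libraries each of Hv, Rc and low-viability seeds. The authors trimmed and filtered reads, mapped them to the barley genome (IBSC_v2), counted known miRNAs with miRProf without mismatches, and predicted others with miRCat; the deposited values are raw whole-number counts. From these, edgeR 4.0.16 (R 4.3.3) was run with TMM scaling on miRNAs with at least 10 counts over 9 libraries; low-viability libraries served only for scaling, the filter and dispersion. Intervals use the fitted means and quasi-likelihood dispersion. The first run used edgeR's newer quasi-likelihood method (legacy = FALSE). It was replaced by this version's default after its results had been seen; the newer method takes its dispersion from the most abundant 5% of miRNAs. It also called 0 miRNAs, with 3 higher and 6 lower in Hv at an unadjusted p under 0.05. The interval formula was corrected at the same time, and the simulation (50 data sets per fold, 20 of 99 miRNAs changed) was later redrawn with the spread seen in the data.

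CPM are TMM-scaled and their totals include the repeated predictions. DESeq2 1.42.0 was an alternative, and scipy 1.17.1 gave the permutation tests. Miscounts of predictions are not covered by these errors. The members, lists and tests were chosen with earlier results of these data known. The text names the known families and their isomiRs, the 10 predictions with the highest totals, the 10 smallest p, miRNAs in all libraries of 1 group only, assigned predictions and their nested forms; not all are given with values, a choice made after these were seen. Not used here: 9 columns of normalized values and the authors' columns of fold changes, dispersions and p-values.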

Additional observations from a re-analysis of the deposited data

How the results depend on the processing

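No miRNA passed in edgeR under any alternative except when Hv replicate 1 (hvu-new2) or Hv replicate 3 (hvu-new69) was left out; leaving out a library gave from 0 to 1, and DESeq2 gave 1 (hvu-new2). Higher in Hv at an unadjusted p under 0.05 were 1 with library sizes from mapped reads, 4 with no filter, 1 with at least 30 counts, 1 with run as a covariate, 0 among known miRNAs only, 1 in the non-redundant table and from 1 to 4 without each library. Lower were 2 with DESeq2, 7 with no filter, 2 with at least 30 counts, 2 among known miRNAs only and from 2 to 5 without each library. Intervals within -1 and 1 numbered 8 with mapped reads and from 9 to 15 without each library. The legacy = FALSE fit, chosen after the data were seen and in fact run first, gave 0 past the threshold, 3 higher, 6 lower and 21 such intervals. The planned legacy = TRUE alternative was the default and so gave no separate value.

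The replicate block gave 0 past the threshold and 1 higher at an unadjusted p under 0.05. Same-numbered libraries did not deviate together (correlations 0.05, -0.09 and -0.02), so the numbers were not taken as pairs. Scaling to mapped reads shifted the median log2 fold change of all miRNAs by -0.31.

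Without a change of direction, hvu-new19 was at 4.34 under the replicate block, miR156.5 at -0.47 with mapped reads and -0.41 within run 1 and without Hv replicate 3, hvu-new74 at -0.63 with mapped reads, miR168.9 at -0.23 without Hv replicate 1 and -0.91 without Hv replicate 3, and hvu-new69 at -6.74 within run 1, where Hv is at 0.

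Directions near 0 turned. With mapped reads, miR159.6 was at -0.27, miR166.7 at -0.23, hvu-new40 at -0.18 and hvu-new52 at -0.23, and the families miR159, miR166 and miR5048 at -0.14, -0.21 and -0.28. With no filter, miR159.6 was at -0.0806, miR166.7 at -0.0304 and hvu-new52 at -0.0623. Within run 1, and with run as a covariate, miR159.6 was at -0.18, miR166.7 at -0.0677 and miR168.10 at 0.27. Among known miRNAs only, miR159.6 was at -0.0760 and miR166.7 at -0.0081, and hvu-new52 in the non-redundant table, summed with its nested forms, at -0.0733. Within run 1, miR159 was at -0.0218, miR166 at -0.0765, miR5048 at -0.0372 and miR5051 at 0.25, and miR5048 in CPM of known miRNAs at -0.0373. The cause was not tested.

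Without each library, values ran from -0.22 to 0.17 for miR159.6, -0.0840 to 0.13 for miR166.7, -0.30 to 0.21 for miR168.10 and -0.16 to 0.13 for hvu-new52. For families they ran from -0.24 to 0.16 (miR156), -0.0227 to 0.30 (miR159), -0.0056 to 0.18 (miR166), -3.81 to 0.70 (miR171), -3.61 to 0.34 (miR444), -0.15 to 0.32 (miR5048) and -0.57 to 0.14 (miR5051). The share of the leading isomiR differed by -2.18 to 0.43 percentage points in miR166 and -10.8 to 7.13 in miR5048, and that of predictions by -2.06 to 0.0557. Within run 1 these differences were 0.62 for miR166 and 0.23 for predictions, and the 20-nt miR159.5 in place of miR159.6 gave 2.80. With counts in 2 libraries of a group required, 61 miRNAs met the rule in both groups. With at least 5 counts per group required, 11 met it in Hv alone, some of which may have fewer counts in Rc. Without each library, from 12 to 33 were in Hv alone and from 17 to 34 in Rc alone. Over family levels, 69 of 90 alternative values kept their direction, as did 36 of 40 leading shares. Their permutation tests cannot go below 0.1, so the side of the 0.05 threshold could not change. Of the fold changes, 335 of 364 kept their direction and side of the threshold.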

Other observations

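Lengths and first bases were compared over the miRNAs with a sequence, leaving out repeated predictions. A sequence was at hand for 47 of the 61 known miRNAs. The abundant miR159.6, miR159.3 and miR156.3, with 4508, 1590 and 1532 counts in Hv and Rc, had none, so the shares of known miRNAs leave them out. Forms of 22 nt held 43.7% ± 1.21 of the counts of predicted miRNAs in Hv and 47.8% ± 2.23 in Rc (SD, n = 3 each), with 42.4%, 44.6% and 44.2% in Hv, against 46.8%, 50.3% and 46.2% in Rc. The groups did not overlap, and hvu-new74 is among these forms (exact permutation test, two-sided, p = 0.1, the smallest possible; adjusted p = 0.8 over 16 classes). Forms that begin with U held 99.8% ± 0.114 of the counts of known miRNAs with a sequence in Hv and 99.5% ± 0.227 in Rc. Among the same known miRNAs, forms of 21 nt held 45.4% ± 3.75 in Hv and 44.6% ± 1.33 in Rc, and forms of 19 nt held 14.7% ± 1.44 in Hv and 15.0% ± 1.32 in Rc.

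Some predictions were at 0 in 1 library and well above it in another of the same group. hvu-new14 had 0, 136 and 55 counts in Hv, against 104, 0 and 208 in Rc, and hvu-new6 had 0, 0 and 12 in Hv, against 34, 0 and 0 in Rc. Both were named after their values were seen.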
